A study of Mus musculus with 9 samples.

Results

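The colony-stimulating factors and the interleukin-1 (IL-1) family were followed across 3 lines of mouse mammary carcinoma cells by their messenger RNA. The set was chosen by name, with earlier results of these data known, and holds 10 genes. They are the colony-stimulating factor genes Csf1, Csf2 and Csf3, the IL-1 family ligand genes Il1a, Il1b, Il18 and Il33, the antagonist gene Il1rn, the receptor gene Il1r1 and Casp1, which encodes the protease that processes some of the ligands. Each gene was read from the probe set that is annotated to it alone, and 9 of the 10 genes had 1 such probe set, among 19938 genes measured. Il1r1 was not analysed here.

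The lines were MR20, DR500 and the parental line 4T1, an untreated mammary carcinoma line from a BALB/c mouse that forms metastases when it is grafted. MR20 was grown out of 4T1 cells that survived methotrexate, a folate antagonist, and the sample labels give 20 ug/ml for up to 2 weeks, followed by 2 weeks of recovery. The text of the study gives the MR20 dose in ng/ml instead. By the labels, 4T1 cells were grown in parallel with the MR20 selection. DR500 was grown out of 4T1 cells that survived doxorubicin, an anthracycline, at concentrations raised in steps to 500 ng/ml, and the labels give up to 2 weeks of selection. The methods of the study describe weekly steps that together run longer than that, followed by recovery without drug. Some label fields of DR500 name methotrexate, whereas its treatment protocol names doxorubicin, and doxorubicin is used here. Each line was hybridised on 3 arrays, from 3 wells, and the labels call those of MR20 and 4T1 biological replicates. Figure legends of the study call the expression results of MR20 and of DR500, each shown with 4T1, biological triplicates. Each drug line is, as far as the sources state, the outcome of a single selection, so a line and its drug cannot be told apart, and the p-values measure the spread between wells of a line. Nothing in the sources says that the wells came from separate selections, so that spread may be technical. No scan date or batch is given, so a batch that followed the lines could not be told apart from them.

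Colony-stimulating factors are secreted proteins that drive the growth and maturation of myeloid cells. CSF1 (M-CSF) acts on macrophages, CSF2 (GM-CSF) on granulocytes, macrophages and dendritic cells, and CSF3 (G-CSF) on neutrophils, and 4T1 tumours are known for the granulocytes that they mobilise in their hosts. IL-1 family ligands signal through paired receptors and the adaptor MYD88 to NF-kB. IL-1α and IL-33 act as alarm signals released from damaged cells, whereas IL-1β and IL-18 are made as precursors that caspase-1 cleaves inside the inflammasome.

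Values are log2 expression on the array scale, where a difference of 1 is a 2-fold change, and they compare lines for 1 gene but not genes with each other. A gene passed the test when its adjusted p in limma was under 0.05 over all 19938 genes. The median log2 difference over all genes was -0.01 in MR20 against 4T1, 0.07 in DR500 against 4T1 and 0.07 in DR500 against MR20. As a guide to low levels, the 95th percentile of 1180 odorant and vomeronasal receptor genes, which these cells are not expected to use, lay at 5.55 in MR20, 5.67 in DR500 and 5.57 in 4T1, and a line mean at or below it is said to lie within the odorant receptor range. The epithelial marker list averaged 11.60 to 11.62 on the MR20 arrays, 8.25 to 8.48 on the DR500 arrays and 11.54 to 11.59 on the 4T1 arrays, and 7 of its 8 genes fell in DR500 against 4T1. Of 9 fibroblast markers, 3 rose and 1 fell in DR500 (5 rose without DR500 replicate 3). Beside both counts, 20.2% of all genes rose and 21.3% fell in DR500 against 4T1. The fibroblast list averaged 5.99 to 6.02 in MR20, 6.66 to 6.75 in DR500 and 6.05 to 6.10 in 4T1. Among these markers, Fbln1 rose by 3.70 and Pdgfra by 1.70 in DR500, and they differed by -0.99 and -0.63 in MR20. Postn rose by 1.34 in MR20 and fell by 0.97 in DR500, and its means in DR500 and 4T1 both lay within the odorant receptor range. The part of these shifts in the results below was not tested. The arrays of a line carry RNA of all its cells, so fewer cells that use a gene and less RNA per cell cannot be told apart.

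Against 4T1, MR20 held more mRNA for Csf1, Csf2, Il1a, Il1b, Il18, Il33 and Casp1. These were 7 of the 9 measured genes, and 0 fell. Over all genes 15.4% rose and 17.1% fell in that comparison. Csf2 and Casp1 rose by more than 2-fold, as did 1.41% of all genes, and 0 fell by that much, against 1.08%. On 7 of the 9 genes the MR20 and 4T1 arrays did not overlap, as on 45.1% of all genes. DR500 against 4T1 was split, with 4 genes higher (Csf1, Csf3, Il33 and Casp1) and 3 lower (Csf2, Il1a and Il1b). The background there was 20.2% higher and 21.3% lower, or 4034 and 4239 genes, a split that became 6096 and 3773 when the quantiles were normalised once more and 5886 and 3601 when each array was centred on its median. Casp1 alone rose by more than 2-fold in DR500, against 2.47% of all genes, and Csf2 and Il1a fell by more than 2-fold, against 3.09%. The DR500 and 4T1 arrays did not overlap on 7 of the 9 genes, and on 50.1% of all genes. Between the drug lines, Csf3 and Casp1 were higher in DR500 than in MR20 and Csf2, Il1a, Il1b and Il18 were lower, beside 21.2% higher and 20.6% lower over all genes (4234 and 4114 genes, or 5823 and 3810 after the repeated normalisation). Of these 4, Csf2, Il1a and Il1b were lower by more than 2-fold, as were 3.23% of all genes, and 0 were higher by that much, against 2.87%. The DR500 and MR20 arrays were apart on 6 of the 9 genes, and on 49.8% of all genes. The median difference of the 9 genes was 0.42 in MR20 against 4T1, 0.05 in DR500 against 4T1 and -0.09 in DR500 against MR20. Both drug lines were set against the same 4T1 arrays.

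**Figure D1:**
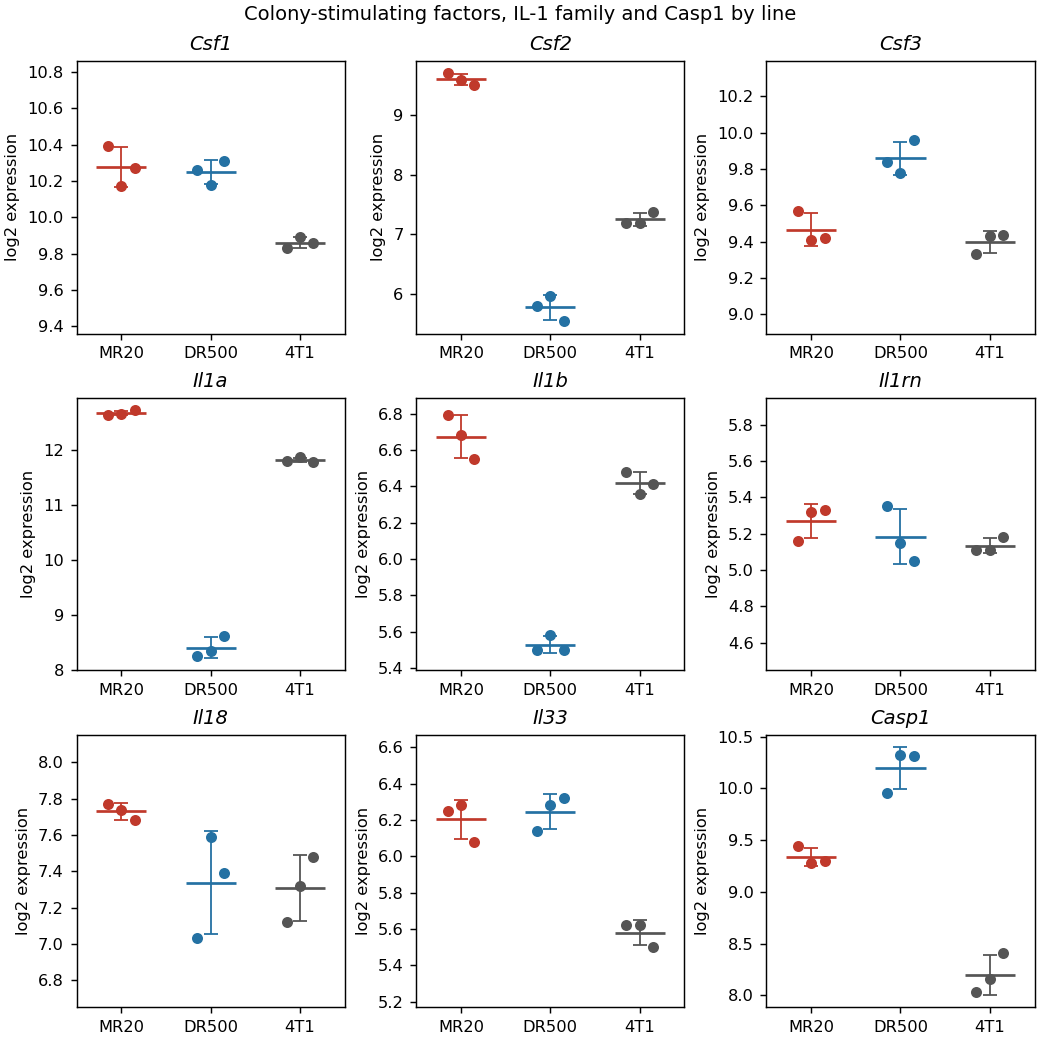
Log2 expression of the 9 measured genes on each array of MR20, DR500 and 4T1, with a panel for each gene and its own vertical scale. Points are arrays, bars the line mean and whiskers 1 SD (n = 3). Csf2 and Il1a were highest in MR20 and lowest in DR500, Casp1 was highest in DR500, and Il1rn lay at a similar low level in all lines.

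Csf2 separated the 3 lines most widely among the colony-stimulating factors. Its level was 9.70, 9.59 and 9.51 on the MR20 arrays, 5.80, 5.97 and 5.54 on the DR500 arrays, and 7.19, 7.18 and 7.38 on the 4T1 arrays. The lines did not overlap, and DR500 came close to the odorant receptor range. In MR20 against 4T1, Csf2 rose by 2.35 ± 0.11 on the log2 scale (SE), 5.09-fold, with an adjusted p of 1.41e-07 in limma, the 66th highest difference of all genes. It fell by 1.48 ± 0.11 in DR500 against 4T1, which is 2.8-fold (adjusted p = 1.70e-06, limma). DR500 thus held 14.2-fold less Csf2 mRNA than MR20 (adjusted p = 1.38e-09, limma). Il3, which encodes another myeloid growth factor, is the only measured gene among the 3 nearest on each side of Csf2 in the RefSeq table of assembly GRCm38.p6, and it did not pass in any comparison, with a difference of 0.02 in MR20 and 0.20 in DR500 against 4T1.

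Csf1 was higher in both drug lines by a similar amount. The arrays read 10.39, 10.17 and 10.27 in MR20, 10.26, 10.18 and 10.31 in DR500, and 9.83, 9.89 and 9.86 in 4T1. All 6 drug-line arrays lay above the 4T1 arrays, and the drug lines overlapped. The rise was 0.42 ± 0.07 in MR20 (adjusted p = 7.88e-04) and 0.39 ± 0.07 in DR500 (adjusted p = 8.21e-04, limma for both). DR500 minus MR20 was -0.03, with a 95% interval of -0.18 to 0.12.

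Csf3 moved in DR500 and not detectably in MR20. It read 9.57, 9.41 and 9.42 in MR20, 9.84, 9.78 and 9.96 in DR500, and 9.33, 9.43 and 9.44 in 4T1. The DR500 arrays were above all others, while MR20 and 4T1 overlapped. Csf3 rose by 0.46 ± 0.07 in DR500 against 4T1, 1.38-fold (adjusted p = 3.45e-04, limma). In MR20 the difference from 4T1 was 0.07, with an interval of -0.09 to 0.22. The direct comparison of DR500 with MR20 gave 0.39 ± 0.07 (adjusted p = 0.00105, limma).

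The receptors of these factors and Il34, which encodes the other ligand of the CSF1 receptor, make 6 genes. For this and every other list, the shares over all genes were 15.4% higher and 17.1% lower in MR20 against 4T1. Those shares were 20.2% and 21.3% in DR500 against 4T1, and a list count near them says little about the list. In MR20 against 4T1, 0 of the 6 rose and 1 fell, the ligand gene Il34 (-0.45), which also fell in DR500 (-0.67). In DR500 against 4T1, 2 rose and 1 fell, or 4 rose without DR500 replicate 3, and 2 fell without 4T1 replicate 2 or DR500 replicate 1. Csf2rb, the signalling subunit shared by the receptors for GM-CSF, IL-3 and IL-5, read 5.48, 5.76 and 5.78 in MR20, 6.64, 6.73 and 7.41 in DR500, and 5.54, 5.49 and 5.18 in 4T1. It rose by 1.53 ± 0.19 in DR500 against 4T1 (adjusted p = 7.35e-05, limma), and its 4T1 mean lay within the odorant receptor range. Mouse Csf2rb has a near-identical copy, Csf2rb2, and the probe sets may share signal, so the split between the copies is uncertain. Csf1r and Csf3r, the receptors for CSF1 and G-CSF, did not pass in either line. Their differences in DR500 against 4T1 were -0.24 (-0.51 to 0.02) for Csf1r and 0.23 (-0.01 to 0.48) for Csf3r. Csf1r lay within the odorant receptor range in MR20 and DR500 and at its edge in 4T1, with a mean of 5.57.

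Of 15 genes that carry the signal of these receptors, 11 rose and 2 fell in MR20, and 11 rose and 1 fell in DR500, both against 4T1. The median difference was 0.32 in MR20 and 0.59 in DR500. Socs3, the feedback inhibitor of the G-CSF and IL-6 receptors, stood at 8.69, 8.56 and 8.43 in MR20, 11.01, 10.87 and 10.95 in DR500, and 8.45, 8.49 and 8.55 in 4T1. It rose 5.45-fold in DR500 against 4T1 (2.45 ± 0.08, adjusted p = 3.37e-09, limma), and its difference in MR20 was 0.07 (-0.10 to 0.23). Stat3, the transcription factor that these receptors activate and that induces Socs3, rose by 1.74 ± 0.07 in DR500 (adjusted p = 1.98e-08) and by 0.25 ± 0.07 in MR20 (adjusted p = 0.0153, limma for both). Without MR20 replicate 1 or without 4T1 replicate 3, the MR20 difference of Stat3 no longer passed (adjusted p = 0.0602 and 0.067).

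Il1a had the largest difference among the 9 genes. It read 12.65, 12.66 and 12.73 in MR20, 8.26, 8.35 and 8.62 in DR500, and 11.81, 11.87 and 11.79 in 4T1. The lines were fully separated, in the same order as for Csf2. Il1a rose by 0.86 ± 0.09 in MR20 against 4T1, 1.81-fold (adjusted p = 3.57e-05, limma). In DR500 it fell by 3.41 ± 0.09 against 4T1, 10.6-fold (adjusted p = 9.25e-10, limma), the 35th lowest difference of all genes. Against MR20 the DR500 level was 19.3-fold lower (adjusted p = 1.70e-10, limma), the 27th lowest.

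Il1b, the neighbour of Il1a on chromosome 2, followed the same order over a narrower range. It read 6.79, 6.68 and 6.55 in MR20, 5.50, 5.58 and 5.50 in DR500, and 6.48, 6.36 and 6.41 in 4T1. The DR500 mean lay within the odorant receptor range, and no lines overlapped. The difference was 0.26 ± 0.07 in MR20 against 4T1 (adjusted p = 0.0174, limma) and -0.89 ± 0.07 in DR500 against 4T1 (adjusted p = 3.64e-06, limma). Compared with MR20, DR500 was 2.21-fold lower (adjusted p = 4.92e-07, limma). The call in MR20 was lost when MR20 replicate 1 or 2 or 4T1 replicate 2 or 3 was left out, with adjusted p-values of 0.0512 to 0.0726. Ckap2l, the other gene near Il1a that was measured and passed in both lines, differed by 0.48 in MR20 and 0.20 in DR500 against 4T1.

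The promoters of Il1a and Il1b are shown because these neighbouring genes moved in the same order over the lines. The sequences are from RefSeq, assembly GRCm38.p6, matched by gene symbol, and hold the 250 bases before the annotated start. Il1a lies on the minus strand at chr2:129309973-129310222 and Il1b on the minus strand at chr2:129371140-129371389. Capitals mark a TATA box (TATAAA, searched on the sense strand) in both windows and, in Il1a, an AP-1 match (TGANTCA, both strands) that does not overlap it.
Il1a: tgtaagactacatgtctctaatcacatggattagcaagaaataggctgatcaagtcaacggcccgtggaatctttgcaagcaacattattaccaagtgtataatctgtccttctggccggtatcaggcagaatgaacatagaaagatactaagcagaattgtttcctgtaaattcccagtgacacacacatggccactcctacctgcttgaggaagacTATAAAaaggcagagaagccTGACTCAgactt
Il1b: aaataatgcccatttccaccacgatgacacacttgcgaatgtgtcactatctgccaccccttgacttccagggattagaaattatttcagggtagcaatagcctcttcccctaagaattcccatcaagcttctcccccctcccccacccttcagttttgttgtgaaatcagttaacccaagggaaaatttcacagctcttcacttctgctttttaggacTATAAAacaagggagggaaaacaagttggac
The first base of the TATA box lay 32 bases before the start of Il1a and 31 before that of Il1b. Among 32851 promoter windows of the same length, 7.59% held TATAAA and 6.75% the AP-1 letters. Of the 10 genes of the set, 9 had an entry, with 13 windows. Besides Il1a and Il1b, both windows of Il33 held TATAAA, 203 and 29 bases before the start. An AP-1 match also lay in a window of Il1rn, 141 bases before the start. The matches describe the letters only.

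Il18 and Il33 encode the other ligands of the set. Il18 read 7.77, 7.74 and 7.68 in MR20, 7.03, 7.59 and 7.39 in DR500, and 7.12, 7.32 and 7.48 in 4T1. The MR20 arrays were the highest, and DR500 and 4T1 overlapped over a wide spread. Il18 rose by 0.42 ± 0.13 in MR20 against 4T1 (adjusted p = 0.033, limma) and was 0.39 ± 0.13 lower in DR500 than in MR20 (adjusted p = 0.0369, limma). The call in MR20 was lost without 4T1 replicate 1 or 2 or without any 1 of the MR20 arrays (adjusted p = 0.061 to 0.129, limma). The call between the drug lines was lost without any 1 of the MR20 arrays, DR500 replicate 1 or 3, or 4T1 replicate 2 (adjusted p = 0.0505 to 0.103, limma). The DR500 difference from 4T1 was 0.03, with an interval of -0.27 to 0.33.

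Il33 rose in both drug lines alike. Its level was 6.25, 6.28 and 6.08 in MR20, 6.14, 6.28 and 6.32 in DR500, and 5.62, 5.62 and 5.50 in 4T1. Every drug-line array exceeded every 4T1 array, at a level near the odorant receptor range. The rise was 0.63 ± 0.08 in MR20 (adjusted p = 1.15e-04) and 0.67 ± 0.08 in DR500 (adjusted p = 4.01e-05, limma for both). DR500 minus MR20 was 0.04, between -0.13 and 0.21. Ranbp6, among the 3 nearest genes on each side of Il33, went the other way in DR500. It differed by -1.17 in DR500 against 4T1 (adjusted p = 1.72e-06) and by -1.03 against MR20 (adjusted p = 3.71e-06, limma for both). In MR20 against 4T1, Ranbp6 did not pass (-0.14).

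Il1rn, which encodes the secreted antagonist of the IL-1 receptor, did not pass in any comparison. Its arrays read 5.16, 5.32 and 5.33 in MR20, 5.35, 5.15 and 5.05 in DR500, and 5.11, 5.11 and 5.18 in 4T1. All line means lay within the odorant receptor range, and the lines overlapped. The difference from 4T1 was 0.13 (-0.05 to 0.32) in MR20 and 0.05 (-0.14 to 0.24) in DR500.

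Among 5 further IL-1 family ligands, 2 rose and 0 fell in MR20 against 4T1, while 0 rose and 0 fell in DR500. The genes that rose were Il1f6 and Il1f9, and Il1f9 (0.24, adjusted p = 0.0464, limma) lay within the odorant receptor range in all lines and no longer passed without 4T1 replicate 1 or 3, without any 1 of the MR20 arrays or without DR500 replicate 2. Without DR500 replicate 3, 1 gene rose in DR500. Il1f6, which encodes the alarm signal IL-36α, read 7.73, 7.51 and 7.48 in MR20, 5.38, 4.90 and 4.36 in DR500, and 4.91, 4.88 and 4.72 in 4T1. Only the MR20 arrays lay above the odorant receptor range. Against the low level in 4T1, the rise in MR20 was 6.66-fold (2.74 ± 0.20, adjusted p = 4.57e-06, limma), and DR500 was 6.46-fold lower than MR20 (adjusted p = 1.95e-06, limma). The IL-36 receptor gene Il1rl2 was within the odorant receptor range in all lines.

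Of the 9 measured receptors and binding proteins of the family besides Il1r1, 3 rose and 2 fell in MR20, and 0 rose and 4 fell in DR500. The count that fell in MR20 was 1 without MR20 replicate 2, and 1 rose in DR500 without 4T1 replicate 1. Il18rap, the accessory chain of the IL-18 receptor, read 8.99, 8.72 and 8.74 in MR20, 7.09, 7.33 and 7.43 in DR500, and 8.38, 8.32 and 8.37 in 4T1. It rose by 0.46 ± 0.10 in MR20 (adjusted p = 0.00387) and fell by 1.07 ± 0.10 in DR500 (adjusted p = 8.93e-06, limma for both). Il18r1, which encodes the other chain of that receptor, lay within the odorant receptor range in all lines. Il1r2, the decoy receptor that binds IL-1 without signalling, fell in both lines, by 0.36 in MR20 and by 0.52 in DR500, where its mean lay within the odorant receptor range. Il1rap, the chain that IL-1 and IL-33 receptors share, differed by 0.25 in MR20 (adjusted p = 0.0188) and by -0.23 in DR500 (adjusted p = 0.0225, limma for both).

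**Figure D2:**
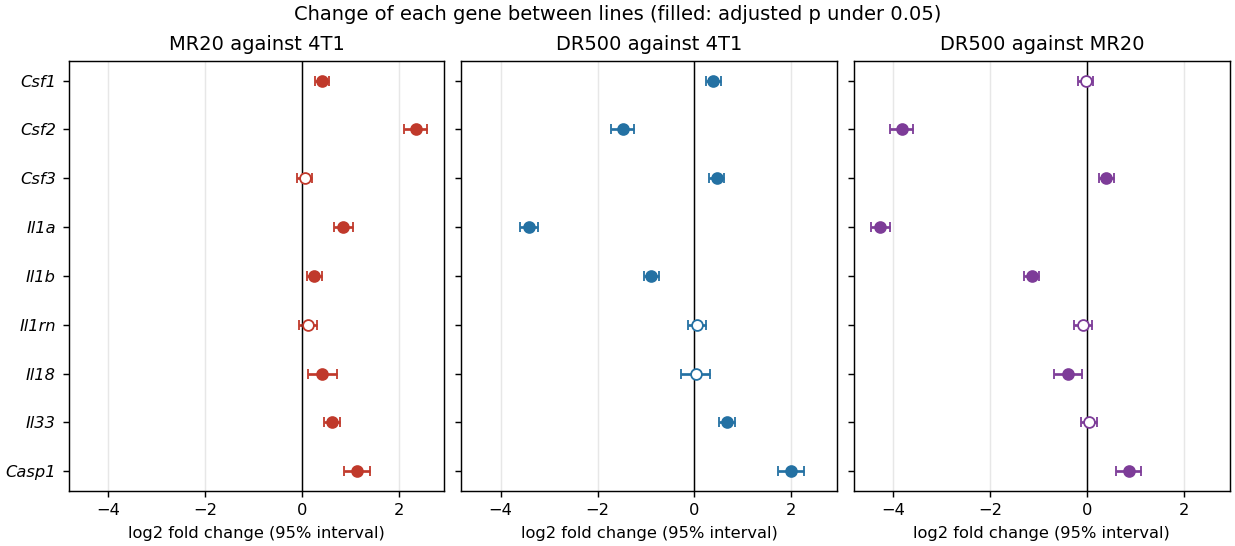
Log2 fold change of the 9 genes in the 3 comparisons of lines, MR20 and DR500 each set against 4T1 and DR500 set against MR20, with the 95% interval from limma (3 arrays a line). Filled points passed the adjusted p threshold of 0.05. Csf2 lay at 2.35 in MR20 and -1.48 in DR500 against 4T1, and Il1a at 0.86 and -3.41.

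Casp1 rose in both drug lines, further in DR500. It read 9.44, 9.28 and 9.30 in MR20, 9.96, 10.32 and 10.31 in DR500, and 8.03, 8.16 and 8.41 in 4T1. The lines did not overlap. Casp1 rose by 1.14 ± 0.12 in MR20 against 4T1, 2.2-fold (adjusted p = 4.52e-05, limma), and by 1.99 ± 0.12 in DR500 against 4T1, 3.98-fold (adjusted p = 4.05e-07, limma). DR500 exceeded MR20 1.81-fold (adjusted p = 1.77e-04, limma). Unlike Il1a and Il1b, which stood in the order MR20, 4T1, DR500, Casp1 stood in the order DR500, MR20, 4T1.

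Among the 3 nearest genes on each side of Casp1 in the RefSeq table, 2 were measured, and both encode related caspases. Casp4, the cytosolic sensor of bacterial lipopolysaccharide, read 9.01, 9.09 and 9.02 in MR20, 9.28, 9.45 and 9.45 in DR500, and 8.07, 8.28 and 8.26 in 4T1. Casp12, an inflammatory caspase linked to the endoplasmic reticulum, read 9.62, 9.60 and 9.65 in MR20, 10.24, 10.41 and 10.49 in DR500, and 8.74, 8.78 and 8.93 in 4T1. Both followed the order of Casp1, with no overlap between lines. Casp4 rose by 0.84 in MR20 (adjusted p = 1.68e-05) and by 1.19 in DR500 (adjusted p = 6.38e-07, limma for both). Casp12 rose by 0.80 in MR20 (adjusted p = 2.63e-05) and by 1.56 in DR500 (adjusted p = 9.78e-08, limma for both). These caspases are similar in sequence, and cross-hybridisation between their probe sets was not tested.

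Promoters were searched for the 9 genes of the set with an entry, all but Csf3, and for Casp4 and Casp12. That of Casp4 is shown because both of its annotated windows, which overlap, held 3 NF-kB consensus matches, the most among these genes. The window printed lies on the plus strand at chr9:5308599-5308848 (GRCm38.p6, RefSeq), and capitals mark the matches.
Casp4: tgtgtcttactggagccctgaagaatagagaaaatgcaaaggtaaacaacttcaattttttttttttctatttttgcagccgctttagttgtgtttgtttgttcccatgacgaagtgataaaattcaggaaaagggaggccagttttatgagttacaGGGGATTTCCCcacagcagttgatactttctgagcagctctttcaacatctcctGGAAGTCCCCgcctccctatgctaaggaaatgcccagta
The matches lie on both strands, and the first 2 overlap within 1 run of capitals. Over all 32851 windows, 7.25% held a match. Csf1 and Il1r1 each had 1 window with 1 match. The windows of Casp1, Casp12, Il18 and Csf2 held none of the 3 motifs above (TATA box, AP-1 and NF-kB). A further motif, the interferon-stimulated response element, was searched on both strands. No window of the set, Casp4 or Casp12 held a match to it, whereas 2.98% of all 32851 windows did.

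In the list of inflammasome and pyroptosis genes, in which Casp1 is not counted, 22 genes were measured. MR20 had 7 of them higher and 2 lower than 4T1, and DR500 had 13 higher and 3 lower. The count lower in MR20 was 1 without any 1 of the 4T1 arrays or without MR20 replicate 2 or 3. Shares over all genes were 15.4% higher and 17.1% lower in MR20, and 20.2% higher and 21.3% lower in DR500. Their median difference on this list was 0.10 in MR20 and 0.47 in DR500. Txnip, which binds thioredoxin and can activate the NLRP3 inflammasome, read 10.03, 9.94 and 9.86 in MR20, 11.54, 11.54 and 11.56 in DR500, and 7.95, 7.75 and 8.01 in 4T1. It rose 4.12-fold in MR20 (adjusted p = 3.27e-08) and 12.5-fold in DR500 (adjusted p = 4.07e-10, limma for both). Aim2, a sensor of cytosolic DNA, rose by 1.23 ± 0.20 in MR20 and by 1.99 ± 0.20 in DR500, with a 4T1 mean within the odorant receptor range. The sensor gene Nlrp3 fell by 0.30 in MR20, to a mean within the odorant receptor range (adjusted p = 0.0359), and rose by 0.62 in DR500 (adjusted p = 3.59e-04, limma for both). Pycard, the adaptor that joins sensors to caspase-1, differed by 0.01 (-0.15 to 0.17) in MR20 and by -0.02 (-0.19 to 0.14) in DR500. Its means of 5.77 in MR20, 5.73 in DR500 and 5.76 in 4T1 lay only just above the odorant receptor range. The pore-forming Gsdmd rose by 0.29 in DR500 (adjusted p = 0.00392, limma), and its difference in MR20 was 0.17 (0.03 to 0.31, adjusted p = 0.0649). Gsdme, a related pore protein, rose by 1.11 in DR500, but by 0.20 (adjusted p = 0.0974) where its probe sets were averaged. Naip2 and Naip6, sensors of bacterial proteins in a family of near-identical copies, differed by 1.41 and 1.36 in DR500 against 4T1. Naip2 lay within the odorant receptor range in 4T1 and Naip6 in all lines, and their separate levels are uncertain.

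**Figure D3:**
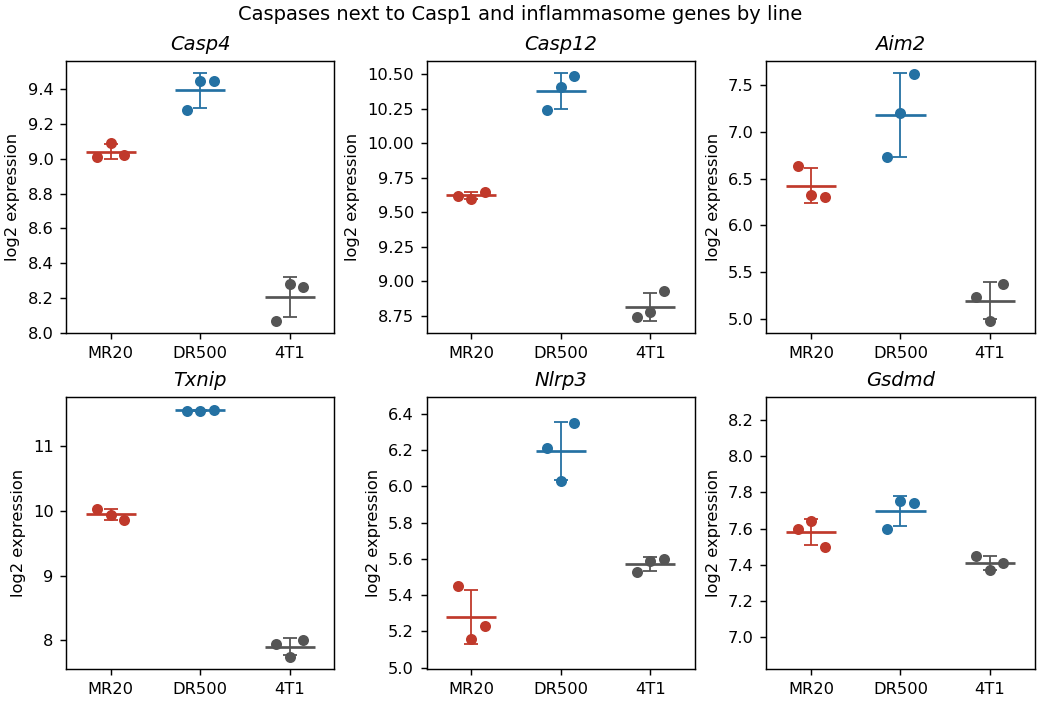
Log2 expression of Casp4, Casp12, Aim2, Txnip, Nlrp3 and Gsdmd on each array of MR20, DR500 and 4T1 (points), with the line mean (bar) and 1 SD (whiskers, n = 3). Casp4, Casp12, Aim2 and Txnip were above 4T1 in both drug lines and highest in DR500 by their means, while Nlrp3 lay below 4T1 in MR20 and above it in DR500.

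Genes of IL-1 receptor signalling moved both ways. Of 16 measured, 5 rose and 3 fell in MR20, and 5 rose and 7 fell in DR500. Without 4T1 replicate 3 or MR20 replicate 2, 1 fell in MR20. Across all genes, 15.4% rose and 17.1% fell in MR20, and 20.2% rose and 21.3% fell in DR500. Myd88, the adaptor itself, rose by 0.22 in MR20 (adjusted p = 0.00591) and by 1.12 in DR500 (adjusted p = 5.32e-08, limma for both). Tab3, which links ubiquitin chains to the kinase TAK1, rose by 0.64 in MR20 (adjusted p = 1.93e-05) and fell by 0.87 in DR500 (adjusted p = 1.00e-06, limma for both). Among 14 NF-kB subunits, inhibitors and feedback genes, 9 rose and 1 fell in MR20, and 6 rose and 6 fell in DR500. The count that fell in MR20 was 0 without any 1 of the 4T1 or MR20 arrays, and 2 without DR500 replicate 1 or 2. Tnfaip3 encodes A20, an NF-kB-induced enzyme that shuts the pathway off. It read 10.49, 10.50 and 10.53 in MR20, 7.87, 7.93 and 8.10 in DR500, and 9.78, 9.75 and 9.80 in 4T1, the same order as Il1a. The change was 0.73 ± 0.07 in MR20 (adjusted p = 1.81e-05) and -1.81 ± 0.07 in DR500 (adjusted p = 1.24e-08, limma for both). Bcl3, a nuclear partner of NF-kB subunits, rose in both lines, by 0.47 in MR20 and by 1.61 in DR500.

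Of 22 secreted and surface genes that IL-1 or NF-kB can induce, 14 rose and 2 fell in MR20, and 8 rose and 10 fell in DR500, both against 4T1. Beside these counts, 15.4% of all genes rose and 17.1% fell in MR20, and 20.2% rose and 21.3% fell in DR500. The median difference of the list was 0.28 in MR20 and -0.10 in DR500. Cxcl2, a chemokine for neutrophils, read 8.58, 8.15 and 8.31 in MR20, 4.97, 5.26 and 5.75 in DR500, and 6.88, 6.70 and 6.88 in 4T1. It rose 2.89-fold in MR20 (adjusted p = 8.69e-05) and fell 2.82-fold in DR500 (adjusted p = 5.41e-05, limma for both), where its mean lay within the odorant receptor range. Il23a, a subunit of IL-23, fell by 1.89 ± 0.06 in DR500, and its difference in MR20 was 0.13 (-0.01 to 0.26). Other genes of the list went the opposite way in DR500. Saa3, an acute phase protein, read 7.50, 7.10 and 6.96 in MR20, 11.39, 11.99 and 12.19 in DR500, and 6.21, 6.20 and 6.28 in 4T1, a rise of 49.3-fold in DR500 (adjusted p = 7.23e-09, limma) and of 1.94-fold in MR20 (adjusted p = 0.00289, limma). Il11, a cytokine of the IL-6 family, rose by 1.83 ± 0.09 in DR500, as did Ptges, a prostaglandin E synthase, by 1.52 ± 0.06. Icam1, the adhesion molecule for leukocytes, rose 2.09-fold in MR20 and 2.81-fold in DR500. Mmp9, a matrix protease, rose 4.91-fold in MR20 and by 1.00 on the log2 scale in DR500.

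**Figure D4:**
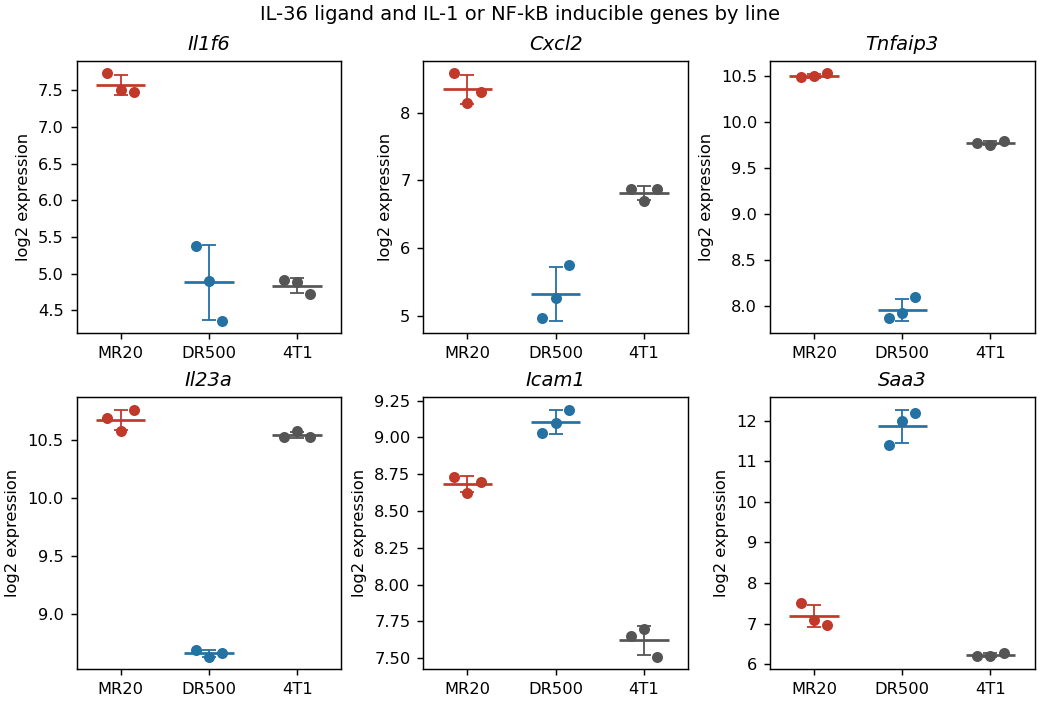
Log2 expression of Il1f6 (IL-36α) and of Cxcl2, Tnfaip3, Il23a, Icam1 and Saa3 on each array of MR20, DR500 and 4T1 (points), with the line mean (bar) and 1 SD (whiskers, n = 3). Cxcl2 and Tnfaip3 were highest in MR20 and lowest in DR500, Il23a was low in DR500, and Icam1 and Saa3 were highest in DR500.

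Other haematopoietic growth factors gave 3 higher and 2 lower genes of 9 measured in MR20, and 1 higher and 5 lower in DR500, or 2 higher without DR500 replicate 3. Il15, a growth factor of natural killer and T cells, rose by 0.41 in MR20 (adjusted p = 0.00628) and fell by 1.55 in DR500 (adjusted p = 4.71e-07, limma for both). Tslp, an epithelial cytokine that acts on dendritic cells, fell by 1.31 in DR500 and differed by -0.04 (-0.25 to 0.16) in MR20. Proteases other than caspase-1 that act on IL-1 family proteins made 8 genes. In MR20 3 rose and 0 fell, and in DR500 5 rose and 0 fell. The count higher in DR500 was 3 without DR500 replicate 2. It was 7 after repeated normalisation or centring, and at most 7 with an array left out. Ctsg, Gzmb and Ctss lay within the odorant receptor range in all lines.

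**Figure D5:**
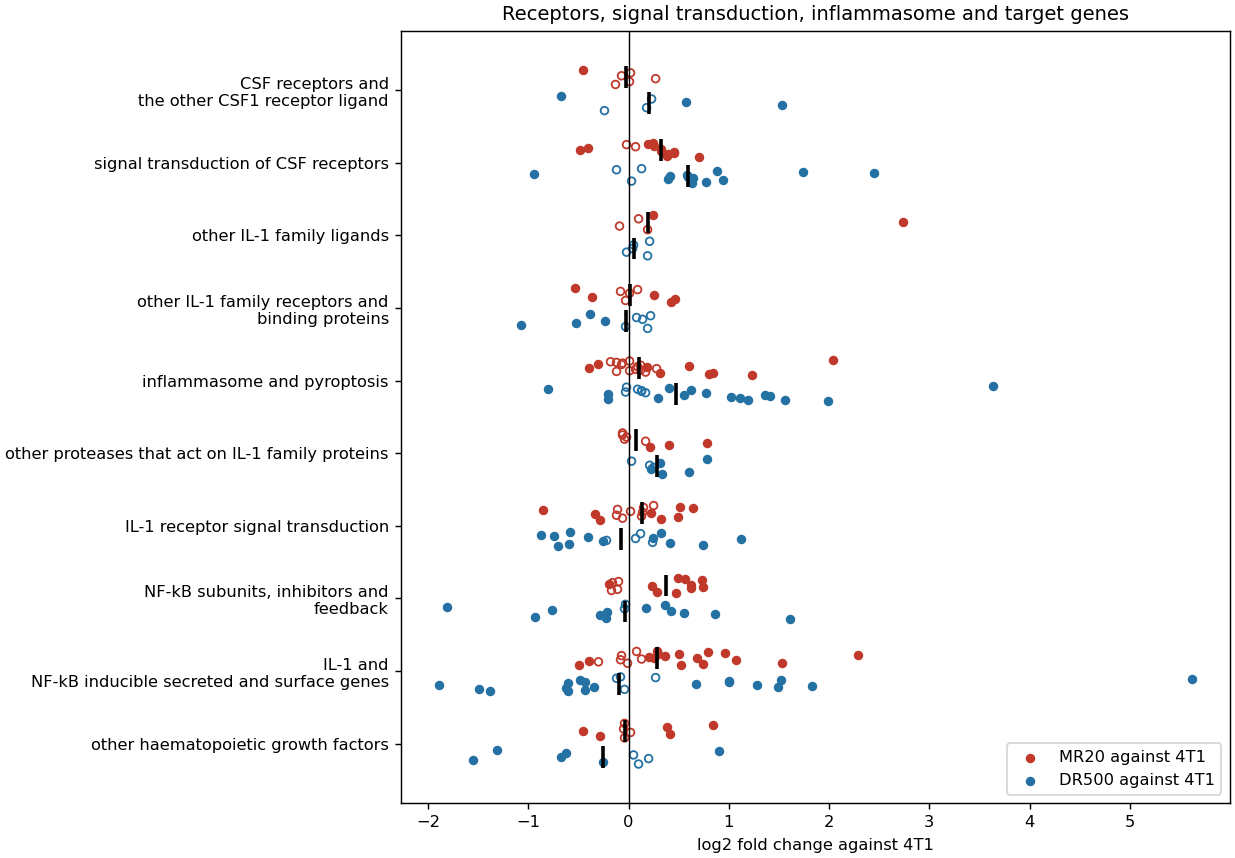
Log2 fold change against 4T1 of every measured gene in 10 lists of receptors, signalling, inflammasome and target genes, for MR20 (red) and DR500 (blue). Each point is a gene, filled where its adjusted p was under 0.05, and the black bar is the list's median. The bar of the inducible list lay at 0.28 for MR20 and -0.10 for DR500, and that of the inflammasome list at 0.10 and 0.47.

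Several of these genes are also used by leukocytes, so their markers were read in the same arrays. The list of 16 leukocyte and myeloid markers averaged 5.87 to 5.91 on the MR20 arrays, 6.31 to 6.38 on the DR500 arrays and 5.59 to 5.65 on the 4T1 arrays. In each line 10 of the 16 lay within the odorant receptor range. The defining markers Ptprc (CD45), Itgam, Adgre1 and Lyz2 were within it in all 3 lines. Ptprc differed by 0.01 (-0.14 to 0.15) in MR20 and by 0.07 (-0.08 to 0.21) in DR500 against 4T1. The list rose through a few genes, with 4 higher in MR20 and 6 higher in DR500 and 0 lower in both. Of all genes, 15.4% were higher in MR20 and 20.2% in DR500. Without 4T1 replicate 2 or DR500 replicate 1, 1 was lower in DR500. Cd53, a tetraspanin of leukocytes, rose in DR500, with 8.95, 9.35 and 9.21, against 4.61, 5.05 and 4.82 in 4T1 (adjusted p = 2.22e-09, limma). Cd53 also passed in MR20, with 5.67, 5.78 and 5.88 (adjusted p = 2.07e-04, limma). Ly6g, a surface protein of granulocytes, rose in DR500, with 6.97, 7.34 and 7.11, against 4.47, 4.96 and 4.48 in 4T1 (adjusted p = 1.88e-07, limma). The 4T1 means of both lay within the odorant receptor range, so no fold is given. Cd68, a lysosomal protein of macrophages, rose 2.35-fold in MR20 and 4.93-fold in DR500. Cd14, a co-receptor for lipopolysaccharide, rose 2.67-fold in MR20 and 1.59-fold in DR500. S100a8, a calcium-binding protein of neutrophils, rose 1.55-fold in MR20 and 2.41-fold in DR500. Their part in the results above was not tested.

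Genes whose pattern over the 9 arrays was most like that of Csf2 and Il1a were sought among 1535 genes with an SD of at least 0.5. For Csf2 these were Tapbpl, Nostrin, AW112010, Hs3st1 and Slc29a3, with Pearson's r of 0.994 to 0.996. AW112010 averaged 9.42 in MR20, 4.51 in DR500 and 6.40 in 4T1. For Il1a they were Gca, Pdgfc, Pmepa1, Kdf1 and Mid2, each with r of 0.999. Pmepa1 averaged 12.32 in MR20, 9.32 in DR500 and 11.79 in 4T1. The 9 arrays fall into 3 lines, so r mostly describes the line means.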

How the data were processed

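RNA from 3 wells each of MR20, DR500 and 4T1 was hybridised to 1-colour Affymetrix whole-transcript mouse arrays. The deposited values are log2 expression that the authors made by robust multi-array normalisation with affy, and whether all 9 arrays went through a single run is not given in the sources used here. Of 35556 probe sets, 21789 carried 1 gene symbol, 1621 several and 12146 none, and the brightest probe set was used for each of 19938 genes. Each of the 9 genes of the set had 1. Current symbols came from RefSeq, GRCm38.p6.

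limma 3.58.1 in R 4.3.3 was fitted to all 9 arrays with a mean per line and empirical Bayes variances, with Benjamini-Hochberg adjustment over all genes, and was tested on simulated data. Precision is limited by the number of arrays, and an exact test of 3 against 3 arrays cannot go below a two-sided p of 0.1. The 10 genes and the lists were chosen with earlier results of these data known. All genes of the set were named, and from each other list at most 4 genes per comparison past an adjusted p of 0.05 and 2-fold, by size. Genes near a member were named past the same thresholds, and the 5 genes most like Csf2 and Il1a by correlation. Others were chosen after their values were seen. These were Il3, Csf1r, Csf3r, Csf2rb2, Il34, Il1r2, Il1rap, Il1rl2, Il18r1, Nlrp3, Pycard, Gsdmd, Ckap2l, Il1f9 and the leukocyte markers at low levels. Alternatives were another normalisation, centring, a filter on dim genes, other probe set rules, other variance models, a replicate block and leaving out each array.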

Additional observations from a re-analysis of the deposited data

Results flagged for a closer look

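The lines differed from each other directly, by limma over all genes, in 6 of the 9 genes and in 5 pathway genes that passed in opposite directions against 4T1. The values are the change in DR500 minus the change in MR20 on the log2 scale, which is the same as DR500 minus MR20. They were -3.83 for Csf2, -4.27 for Il1a, -1.14 for Il1b and -0.39 for Il18, which stood lower in DR500, and 0.39 for Csf3 and 0.86 for Casp1, which stood higher. Csf2, Il1a and Il1b rose in MR20 and fell in DR500 against 4T1, whereas Casp1 rose in both. Among the pathway genes the difference was -3.03 for the chemokine Cxcl2, whose DR500 mean lay within the odorant receptor range, -2.54 for Tnfaip3, the NF-kB feedback gene, -1.96 for the cytokine Il15, -1.53 for the receptor chain Il18rap and -1.51 for the signalling gene Tab3. Each of these rose in MR20 and fell in DR500. The pathway genes were limited to those named by the rule.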

How the results depend on the processing

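Under 8 other settings and with each of the 9 arrays left out, 431 of 450 log2 fold changes of the 9 genes kept their side of the threshold, 19 crossed it, and no called value changed sign. Values near 0 that did not pass changed sign for Il1rn and Il18 in DR500 against 4T1 and for Csf1 and Il33 in DR500 against MR20. The 19 concern Il1b in MR20 against 4T1 and Il18 in MR20 against 4T1 and in DR500 against MR20. For Il18 in MR20, the adjusted p was 0.0723 when all probe sets were tested and 0.061 to 0.129 where an array decided it. For Il18 in DR500 against MR20, it was 0.066 after repeated quantile normalisation, 0.0502 after centring and 0.071 over all probe sets, and reached 0.103 without DR500 replicate 1. The number of genes higher in MR20 ranged from 5 to 7 without single arrays, and the number lower in DR500 than in MR20 from 3 to 4. The filter on dim genes removed Il1b, Il1rn and Il33, which limits what can be said of them. Over all genes, those higher in DR500 than in 4T1 numbered 6096 after repeated normalisation, against 4034. Of 1530 counts over the pathway and marker lists, 126 moved by more than 1.5 times. Centring gave 3 lower NF-kB genes in place of 6 and 1 lower inflammasome gene in place of 3 in DR500 against 4T1, and in MR20 1 lower gene of IL-1 receptor signalling in place of 3. The lower NF-kB genes in MR20 numbered 0 to 2 over the settings. With the filter on dim genes, 8 inflammasome genes, 3 proteases and 3 leukocyte markers were higher in DR500, in place of 13, 5 and 6. That filter, testing all probe sets or limma's trended variance left 1 further IL-1 family ligand higher in MR20, in place of 2.

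Replicate numbers were not taken to pair the arrays. Deviations of same-numbered arrays correlated at -0.0784, 0.045 and -0.237 for MR20 with 4T1, at 0.237, -0.0319 and 0.327 for DR500 with 4T1, and at -0.309, 0.147 and -0.294 for DR500 with MR20. With the replicate number as a block, 7 genes were higher and 0 lower in MR20, 4 and 3 in DR500, and 2 and 4 in DR500 against MR20, the same counts as without it. Over all genes in MR20 against 4T1, the block gave 2955 higher and 3317 lower, against 3064 and 3409.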
